A study of Mus musculus with 9 samples.

Results

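Nuclear speckle and splicing factors were followed as 39 genes, taken from the deposited tables by gene symbol. All 39 were listed in all 9 libraries, among 19072 genes listed in any library, and all 39 were among the 13682 genes with enough reads to test. They comprise 12 SR proteins, 3 speckle scaffold genes, 9 splice site recognition factors, 4 tri-snRNP components, 5 kinases, 4 exon junction and export factors and 2 RS-domain regulators. The libraries were made from 4T1-TGL cells grown in DMEM/F12, which derive from 4T1, a BALB/c mammary tumour line. Of the 9 libraries, 3 came from the Malat1 knockout line KO2, 3 from the Malat1 knockout line KO1 and 3 from cells with wild-type Malat1 (Ctrl). Each knockout is represented by 1 line, and nothing says that the replicates were separate cultures, so p-values measure sample-to-sample spread alone, and that spread may be technical. How the knockouts were made, and which part of Malat1 was removed, is not given in the sources used here.

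Nuclear speckles are bodies between the chromosomes that store and modify pre-mRNA splicing factors. SR proteins carry an RNA-binding domain and a tail rich in arginine and serine. CLK-family kinases phosphorylate that tail, which releases the proteins from speckles to sites of transcription. Malat1 is a long noncoding RNA that is retained in the nucleus and concentrated in speckles. Many SR protein genes limit their own output by splicing into transcripts with an early stop codon, which are then degraded.

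The level of Malat1 checks the labels, and is given in CPM, read counts scaled to a common library size. Malat1 had 119, 160.1 and 98.1 CPM in the KO2 libraries, 3.88, 3.69 and 2.63 CPM in the KO1 libraries and 510.3, 402 and 474 CPM in the Ctrl libraries. The mean was 27.2% of the Ctrl mean in KO2 and 0.735% in KO1, so the library groups differ in how much Malat1 RNA they retained. Total expected counts per library ran from 30655924 to 35406395. All 6 epithelial markers (Epcam, Krt8, Krt18, Krt19, Cldn4 and Cdh1) were listed in each group, and their summed FPKM was 1342 to 1448 in KO2, 799.5 to 939 in KO1 and 456 to 472 in Ctrl. Nearly all of that sum was the keratins Krt8, with means of 575 FPKM in KO2, 373 in KO1 and 215 in Ctrl, and Krt18, with 818 in KO2, 489.9 in KO1 and 249 in Ctrl. The other 4 were near 0, with means of at most 0.29 FPKM in any group, and Epcam, the defining epithelial surface marker, went the other way, with 0.017 in KO2, 0.027 in KO1 and 0.22 in Ctrl. Summed FPKM was 23.8 to 24.1 in KO2, 41.6 to 44.2 in KO1 and 43.7 to 45.8 in Ctrl for 5 fibroblast markers. Most of it was Pdgfra, with means of 20.5 FPKM in KO2, 40.4 in KO1 and 43.3 in Ctrl, while Pi16 went the other way, with 3.05 in KO2, 2.66 in KO1 and 0.72 in Ctrl, and the collagen genes Col1a1 and Col3a1 had at most 0.38. For 6 macrophage and neutrophil markers it was 46.9 to 50.0 in KO2, 30.3 to 50.4 in KO1 and 25.1 to 43.4 in Ctrl. Adgre1 was at 0 in every KO2 and KO1 library and Ptprc at 0 in every KO2 library. Cd68 and S100a8 made up nearly all of that sum, and their means went opposite ways. Cd68 had means of 10.5 FPKM in KO2, 28.0 in KO1 and 14.8 in Ctrl. S100a8 had 37.3 in KO2, 13 in KO1 and 19.1 in Ctrl, with an SD of 7.67 in KO1 and 11.9 in Ctrl. For 6 T and NK cell markers the summed FPKM was 0.74 to 1.06 in KO2, 1.86 to 2.58 in KO1 and 1.33 to 2.56 in Ctrl, with Cd3d, Cd4 and Nkg7 at 0 in all 9 libraries. Nearly all of that sum was Lck, with means of 0.84 FPKM in KO2, 2.12 in KO1 and 1.89 in Ctrl. For 5 endothelial markers the sum was 0.67 to 1.55 in KO2, 1.29 to 1.35 in KO1 and 4.1 to 6.46 in Ctrl. Most of it was Plvap, with means of 0.71 FPKM in KO2, 1.14 in KO1 and 4.93 in Ctrl. The others were near 0, at most 0.15 in any group. In KO2 the means of Pecam1, Cdh5, Kdr and Tek all went the other way, above Ctrl, but each had an SD above its mean. Pecam1 had 0.10 in KO2, 0.15 in KO1 and 0.027 in Ctrl. In KO1 Tek was also above Ctrl, Kdr was level with it and Cdh5 was below. The part of these marker differences in the results below was not tested, and in bulk RNA fewer cells of a type and less RNA per cell cannot be told apart.

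The 250 bases before an annotated transcript start are printed for 7 genes, because they are the 4 genes that rose most in KO2, the 1 that fell there, and 2 further genes, Srsf7 and Pnn, which were chosen after their values were seen, Srsf7 as a riser with an ETS match and Pnn because it was lower in KO1 and higher in KO2. Sequences are from RefSeq (GRCm38.p6), written 5′ to 3′ along the gene. By the gene positions of the same build, the windows of Srsf2, Luc7l3 and Srsf1 lie within the gene, behind a start farther upstream, and that of Srsf7 does in part. The windows are chr2:162931258-162931507, plus strand, for Srsf6; chr11:116853095-116853344, minus strand, for Srsf2; chr11:94321964-94322213, minus strand, for Luc7l3; chr11:88047123-88047372, plus strand, for Srsf1. They are chr2:156180239-156180488, minus strand, for Rbm39, which has 2 promoters in the table, of which 1 is shown; chr17:80207306-80207555, minus strand, for Srsf7; and chr12:59066669-59066918, plus strand, for Pnn. Capitals mark matches on either strand to any of 6 motifs. ETS factors were searched as CCGGAAG and Sp1 as GGGCGG. The CCAAT box was searched by the letters of its name, the TATA box as TATAAA and the cAMP response element as TGACGTCA. The NRF1 motif was searched as its palindrome of 10 letters. Matches that overlap run together as 1 stretch of capitals.
Srsf6: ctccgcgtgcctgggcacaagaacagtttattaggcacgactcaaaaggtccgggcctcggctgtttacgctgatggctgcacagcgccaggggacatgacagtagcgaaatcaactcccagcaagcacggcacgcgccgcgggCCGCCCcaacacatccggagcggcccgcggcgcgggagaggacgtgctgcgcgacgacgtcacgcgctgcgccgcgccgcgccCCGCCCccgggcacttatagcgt
Srsf2: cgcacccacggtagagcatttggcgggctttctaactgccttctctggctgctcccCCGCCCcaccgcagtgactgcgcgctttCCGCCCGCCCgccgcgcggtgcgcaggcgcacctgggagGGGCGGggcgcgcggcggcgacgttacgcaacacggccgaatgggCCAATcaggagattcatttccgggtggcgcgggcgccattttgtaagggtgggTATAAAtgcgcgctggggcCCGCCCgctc
Luc7l3: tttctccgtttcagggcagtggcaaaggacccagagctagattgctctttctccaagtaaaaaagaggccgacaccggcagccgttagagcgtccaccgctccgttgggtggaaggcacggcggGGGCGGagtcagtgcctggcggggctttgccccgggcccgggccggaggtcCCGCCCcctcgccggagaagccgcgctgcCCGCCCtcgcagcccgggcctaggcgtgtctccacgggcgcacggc
Srsf1: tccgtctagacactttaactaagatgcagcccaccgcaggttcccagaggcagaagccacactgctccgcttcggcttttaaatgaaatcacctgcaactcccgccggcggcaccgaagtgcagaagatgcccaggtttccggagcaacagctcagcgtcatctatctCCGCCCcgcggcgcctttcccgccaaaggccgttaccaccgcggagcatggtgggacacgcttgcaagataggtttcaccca
Rbm39: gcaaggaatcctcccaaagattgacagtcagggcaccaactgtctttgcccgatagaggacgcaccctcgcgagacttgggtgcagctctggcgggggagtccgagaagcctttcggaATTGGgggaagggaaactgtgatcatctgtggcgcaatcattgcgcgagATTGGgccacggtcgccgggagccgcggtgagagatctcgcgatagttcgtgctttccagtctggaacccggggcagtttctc
Srsf7: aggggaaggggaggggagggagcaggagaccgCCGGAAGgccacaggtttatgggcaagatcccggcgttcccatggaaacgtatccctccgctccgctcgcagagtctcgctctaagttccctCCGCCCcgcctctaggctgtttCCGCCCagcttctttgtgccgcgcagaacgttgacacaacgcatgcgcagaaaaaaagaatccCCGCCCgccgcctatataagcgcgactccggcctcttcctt
Pnn: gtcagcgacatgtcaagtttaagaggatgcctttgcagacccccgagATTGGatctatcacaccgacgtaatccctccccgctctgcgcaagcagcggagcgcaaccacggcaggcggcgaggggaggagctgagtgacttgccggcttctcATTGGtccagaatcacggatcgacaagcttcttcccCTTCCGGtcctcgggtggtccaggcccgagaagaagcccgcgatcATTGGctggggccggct

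Srsf6, Luc7l3 and Srsf1 held the Sp1 letters and none of the other motifs, with 2, 3 and 1 matches. Srsf2 held 5 Sp1 matches, a CCAAT match and a TATAAA match. Rbm39 held 2 CCAAT matches and no Sp1 match, and Pnn held 3 CCAAT matches and 1 ETS match. Of the 39 genes, 35 had 1 or more promoters in the table, 45 in all. The ETS letters were in 33.3% of these 45 promoters, against 6.91% of all 32851 promoters in the table, and the Sp1 letters in 62.2%, against 32.7%. NRF1 letters were in 6.67%, against 0.782%, CCAAT in 33.3%, against 33.8%, and TATAAA in 6.67%, against 12.4%. The cAMP response element was in 4.44%, against 1.55%. The 45 promoters had a median GC content of 61.2% and 21 CpG dinucleotides, against 52.4% and 6 in all promoters. The motif counts are matches of letters, and no binding was measured. All promoters in the table cover 27025 genes, where 13682 genes were tested. The shares over all promoters are thus not limited to tested genes, and were not matched for CpG content.

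In KO2 cells 21 of the 39 genes rose and 1 fell against Ctrl, by edgeR's quasi-likelihood test at an adjusted p under 0.05. SR proteins held 8 of the 21, led by Srsf6, Srsf2, Srsf1 and Srsf7, and all 4 exon junction and export genes rose. Rbm39, an RS-domain coactivator, was the gene that fell. Of all tested genes, 54.1% were called in this comparison, 24.6% higher and 29.5% lower. The median log2 fold change was 0.24 over the 39 genes and -0.03 over all tested genes. In 24 of the 39 genes every KO2 library was above every Ctrl library and in 2 every one was below, against 30.2% and 35.5% of all tested genes. The rise was small in most, from 0.19 for Tra2b to 0.80 for Srsf6 on the log2 scale.

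With scaling by total counts alone the median of all genes was -0.11, and 35.8% of all calls were higher in KO2, where the main scaling gave -0.03 and 45.5%; 15 of the 39 genes then rose and 1 fell, and Srsf11, Srrm2, U2af1, Sf3a1, Tra2b and Pnn were no longer called. The 39 genes were a little lower in Ctrl replicate 2 than in the other Ctrl libraries, with a median deviation from the group of -0.09 on the log2 scale where that over all genes was 0.01, and without that library 15 rose and 0 fell (Rbm39 was no longer called, and the same 6 genes were not either).

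In KO1 cells 0 of the 39 genes rose and 7 fell against Ctrl by the same test. They were Pnn, Srsf5, U2af1, Clk3, Rbm25, Snrnp70 and Rnps1, spread over 5 of the 7 role groups. Of all tested genes 30.5% were called in this comparison, 15.6% higher and 14.9% lower, so the share of the 39 genes that fell, 17.9%, was near that of all genes. The median log2 fold change was -0.03 over the 39 genes and 0.00 over all tested genes. In 11 genes every KO1 library was below every Ctrl library and in 1 above, against 20.9% and 21.8% of all tested genes. U2af1 was called under each of 21 alternatives. The count was 4 without Ctrl replicate 1, without Ctrl replicate 3 and without KO1 replicate 3.

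Set against each other, KO2 was higher than KO1 for 26 of the 39 genes and lower for Rbm39 alone, where 55% of all tested genes were called, 25.5% higher and 29.5% lower. The comparison of KO2 with KO1 is the test of whether the lines differ, and the 2 comparisons with Ctrl share the Ctrl libraries. In 27 genes every KO2 library was above every KO1 library and in 1 below, against 29.5% and 32.6% of all tested genes. The median log2 difference was 0.30 over the 39 genes and -0.02 over all tested genes. With total counts 16 of the 39 genes were higher and 1 lower, 33.4% of all calls were higher in KO2, where the main scaling gave 46.4%, and the median of all genes was -0.13.

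**Figure D1:**
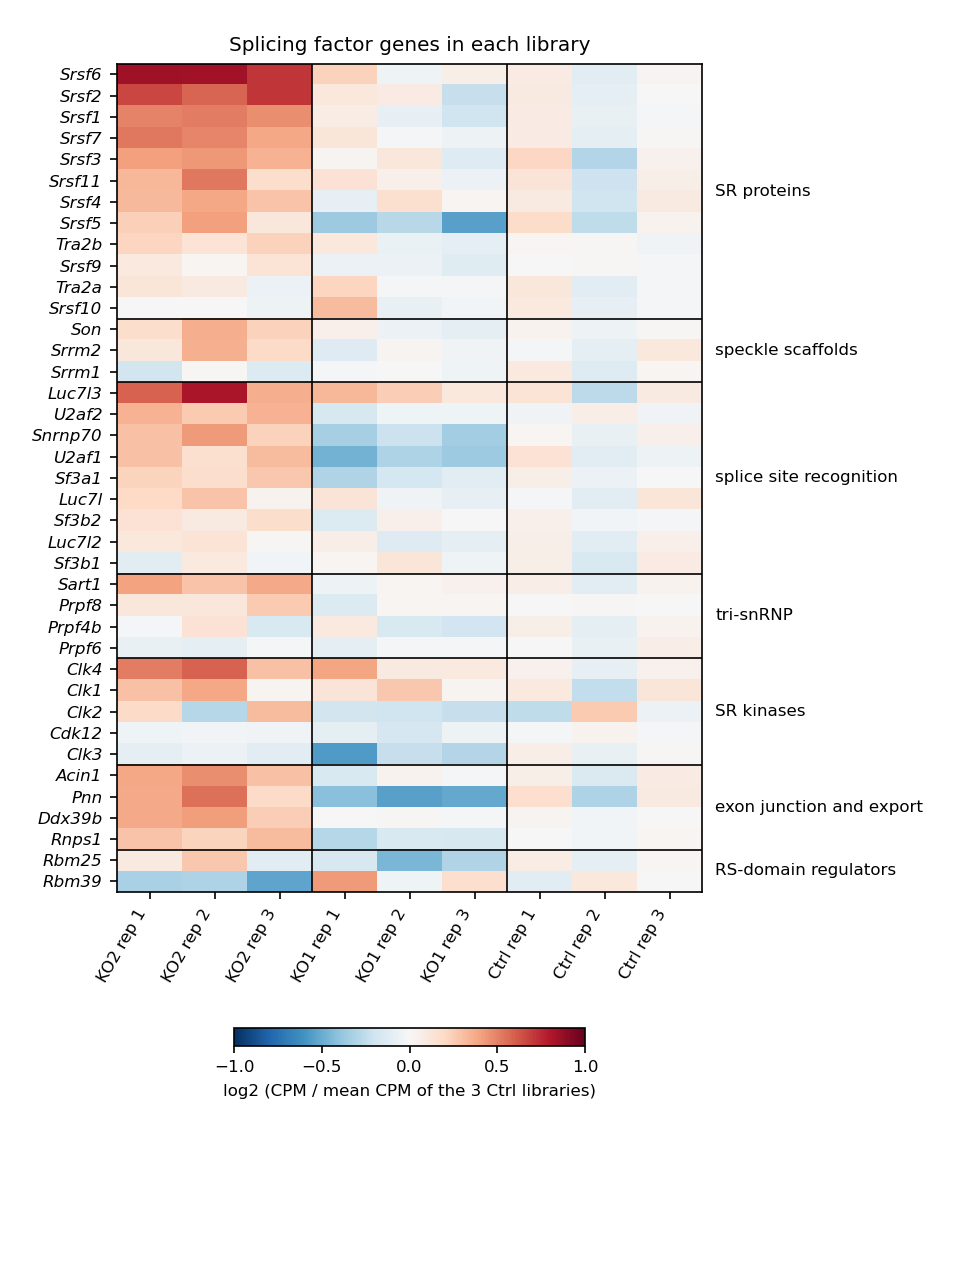
Levels of the 39 genes in each library (columns: KO2, KO1 and Ctrl, 3 libraries each), as log2 of CPM over the mean of the 3 Ctrl libraries, with rows grouped by role. Red runs along the KO2 columns for most SR proteins and exon junction genes, and Rbm39 is blue there; Pnn, U2af1 and Srsf5 are blue in the KO1 columns.

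**Figure D2:**
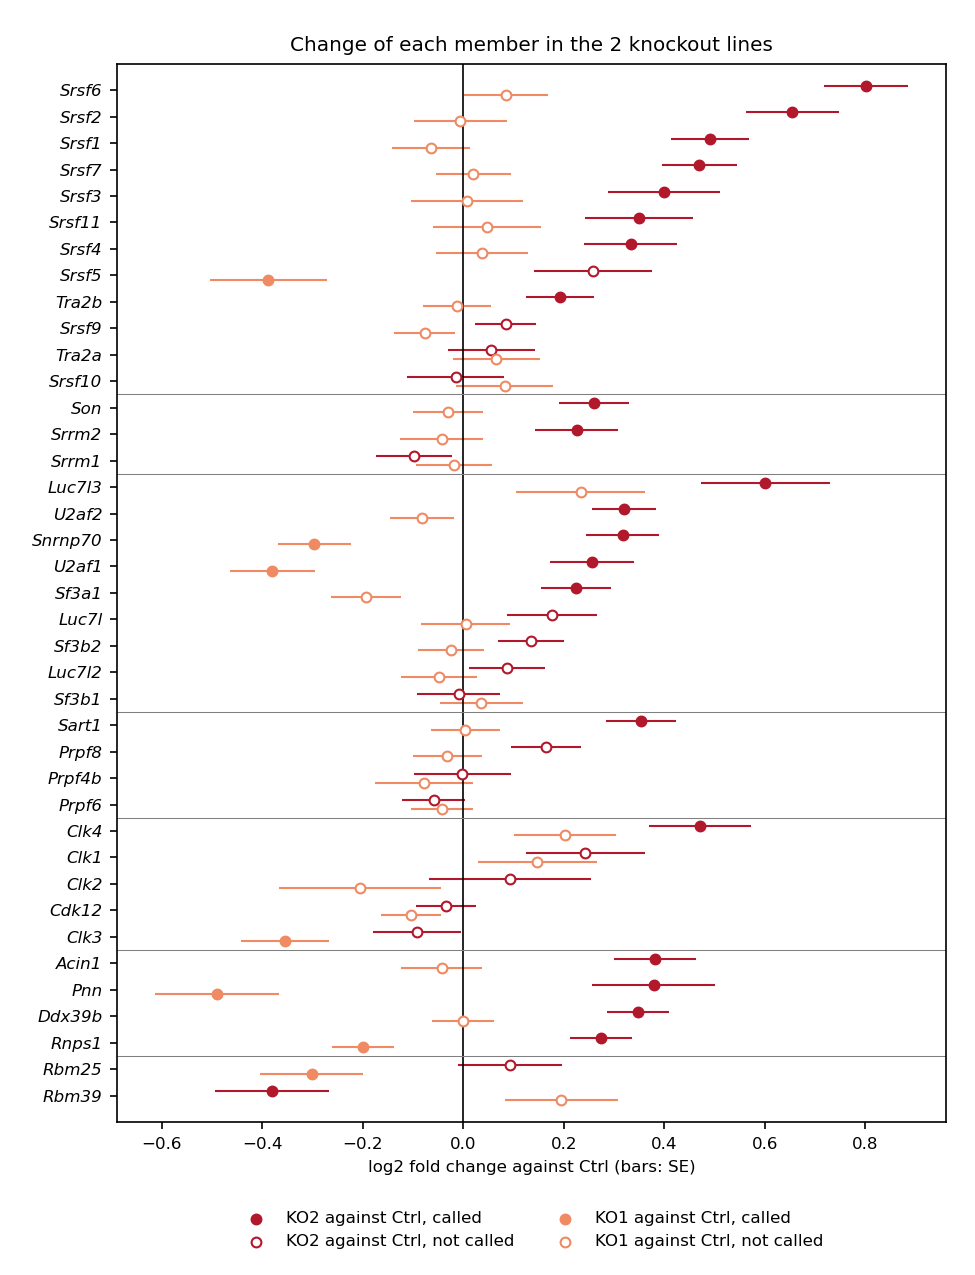
Log2 fold change against Ctrl of each gene in KO2 (dark) and KO1 (light), with SE bars and filled points at an adjusted p under 0.05. KO2 has 21 filled points above 0 and 1 below, and KO1 has 7, all below 0.

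SR proteins bind exonic enhancers and recruit the splicing machinery. In KO2 8 of 12 rose and 0 fell, and in KO1 0 rose and 1 fell. Beside this and the role counts below, 24.6% of all tested genes rose and 29.5% fell in KO2. In KO1 15.6% of all tested genes rose and 14.9% fell. Srsf6 (chr2:162931508-162937121) had 515, 511 and 469 CPM in the KO2 libraries, 335, 278 and 298 CPM in the KO1 libraries and 303, 264 and 291 CPM in the Ctrl libraries, and no KO2 library overlapped any other. Its log2 fold change in KO2 was 0.80 ± 0.08 (SE, adjusted p = 1.4e-05), the largest rise of the 39 genes, and in KO1 it was 0.08 ± 0.08 (SE, adjusted p = 0.48). Srsf2, an SR protein also known as SC35 and a marker of speckles, had 247, 232 and 255 CPM in the KO2 libraries, 167, 165 and 132 CPM in the KO1 libraries and 166, 146 and 155 CPM in the Ctrl libraries. The KO2 libraries lay above all others, and the log2 fold change was 0.65 ± 0.09 (SE, adjusted p = 1.4e-04) in KO2 and -0.01 ± 0.09 (SE, adjusted p = 0.97) in KO1. Srsf1, the founding member of the family, had 571, 580.0 and 559 CPM in the KO2 libraries, 428, 384 and 353 CPM in the KO1 libraries and 430.3, 386 and 401 CPM in the Ctrl libraries. It was higher in each KO2 library than in any other, with 0.49 ± 0.08 (SE, adjusted p = 3.2e-04) in KO2 and -0.06 ± 0.08 (SE, adjusted p = 0.57) in KO1. Srsf7, which has a zinc knuckle, had a log2 fold change of 0.47 ± 0.07 (SE, adjusted p = 3.1e-04) in KO2 and of 0.02 ± 0.07 (SE, adjusted p = 0.87) in KO1. Srsf3, Srsf4, Srsf11 and Tra2b rose in KO2 by 0.40, 0.33, 0.35 and 0.19 on the log2 scale, and the Srsf11 and Tra2b calls were lost with total counts; the Srsf11 call was also lost without Ctrl replicate 2 or KO2 replicate 2, and that of Tra2b without each Ctrl library in turn, without KO2 replicate 1 and without KO2 replicate 3. In KO1 these 4 genes were between -0.01 and 0.05 and none was called. In both FPKM fits the KO2 calls of Srsf3, Srsf4 and Tra2b were lost.

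Srsf5 was the SR protein called in KO1. It had 491, 554 and 451 CPM in the KO2 libraries, 325, 345 and 286 CPM in the KO1 libraries and 474, 349.8 and 427 CPM in the Ctrl libraries, so that every KO1 library lay below every Ctrl library, while the KO2 and Ctrl ranges overlapped. Its log2 fold change was 0.26 ± 0.12 (SE, adjusted p = 0.083) in KO2 and -0.39 ± 0.12 (SE, adjusted p = 0.028) in KO1. The KO1 call was lost with the replicate block and without Ctrl replicate 1, Ctrl replicate 3, KO1 replicate 1 or KO1 replicate 3. Srsf9, Srsf10 and Tra2a, a splicing activator related to Tra2b, were not called in either line, at 0.08, -0.02 and 0.06 in KO2 and -0.08, 0.08 and 0.07 in KO1. Of the SR proteins, 10 of 12 were higher in KO2 than in KO1. The summed FPKM of the 12, a level per transcript length, was 1256 to 1335 in KO2, 991 to 1116 in KO1 and 998 to 1178 in Ctrl, so the KO2 range lay above both. Srsf6 made up 10.4% of that sum in KO2, 8.48% in KO1 and 7.56% in Ctrl, and Srsf5 made up 19.3% in KO2, 16.7% in KO1 and 20.5% in Ctrl.

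**Figure D3:**
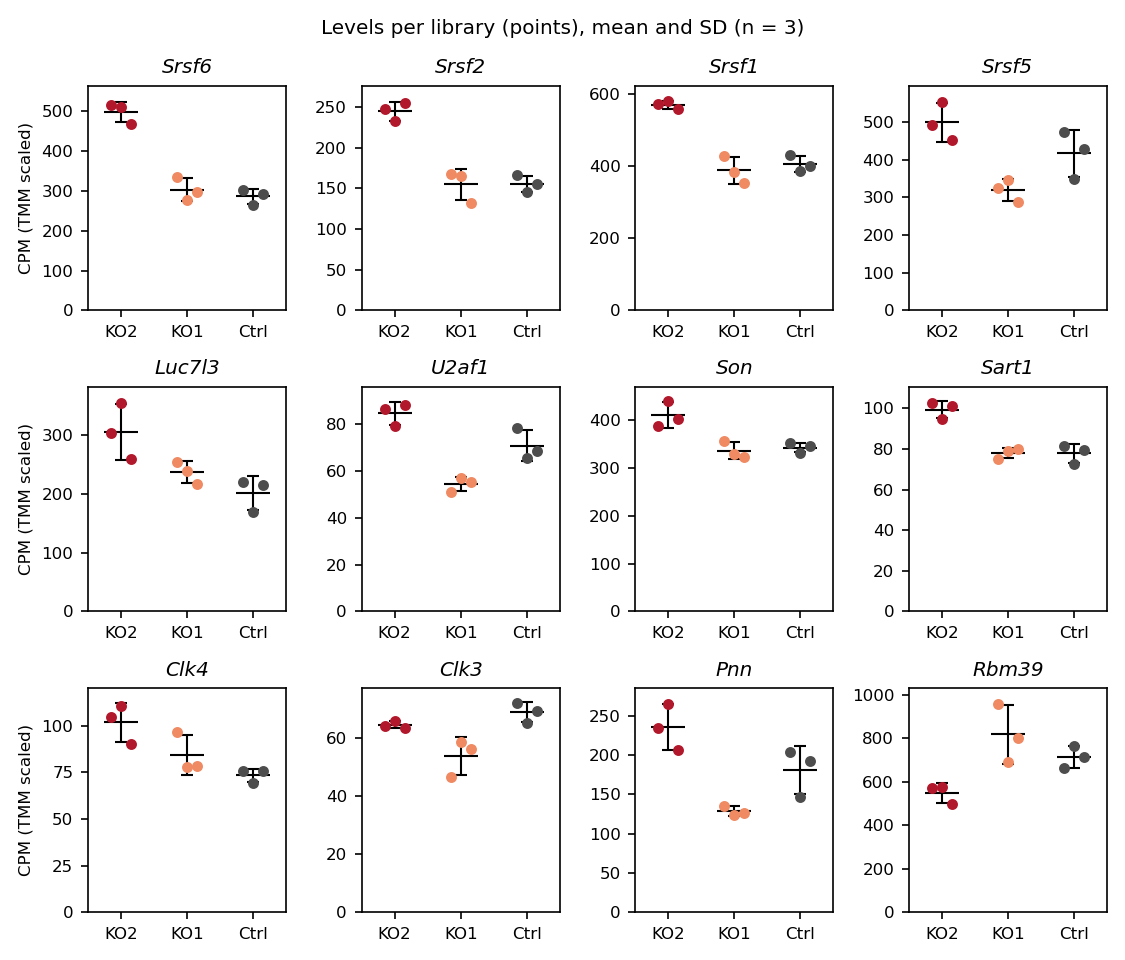
CPM of 12 genes in each library (points; bars: mean and SD of 3) for KO2, KO1 and Ctrl. For Srsf6, Srsf2 and Srsf1 the KO2 points lie above all others; for U2af1 and Pnn the KO1 points lie below all others.

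Son and Srrm2 are large proteins on which speckles form. Both rose in KO2, and 0 of the 3 scaffold genes were called in KO1. Son (chr16:91647824-91679192) had 388, 441 and 402 CPM in the KO2 libraries, 356, 329 and 323 CPM in the KO1 libraries and 352, 332 and 345 CPM in the Ctrl libraries, and the KO2 libraries lay above all others. On the log2 scale Son stood at 0.26 ± 0.07 (SE, adjusted p = 0.0086) in KO2 and -0.03 ± 0.07 (SE, adjusted p = 0.78) in KO1. The KO2 call of Son was lost in both FPKM fits. Srrm2 had a log2 fold change of 0.23 ± 0.08 (SE, adjusted p = 0.037) in KO2 and of -0.04 ± 0.08 (SE, adjusted p = 0.73) in KO1, and Srrm1, a coactivator that bridges exonic enhancers, had -0.10 ± 0.08 (SE, adjusted p = 0.29) in KO2 and -0.02 ± 0.08 (SE, adjusted p = 0.88) in KO1. The Srrm2 call was lost with total counts, with the replicate block, in both FPKM fits and without Ctrl replicate 1, Ctrl replicate 2, KO1 replicate 3, KO2 replicate 2 or KO2 replicate 3.

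Splice site recognition factors read the ends of introns, U1 at the 5′ splice site and U2AF and SF3 at the 3′ end. Of 9, 5 rose and 0 fell in KO2, and 0 rose and 2 fell in KO1. Luc7l3, a protein associated with U1 (chr11:94291073-94322329), had 303, 355 and 259.6 CPM in the KO2 libraries, 254, 239.6 and 217 CPM in the KO1 libraries and 221, 169 and 215 CPM in the Ctrl libraries. Each KO2 library was above every other, by a narrow margin over the highest KO1 library, and the log2 fold change was 0.60 ± 0.13 (SE, adjusted p = 0.0024) in KO2 and 0.23 ± 0.13 (SE, adjusted p = 0.2) in KO1. Of the summed FPKM of Luc7l, Luc7l2 and Luc7l3, Luc7l3 was 44.2% in KO2, 41.2% in KO1 and 36.5% in Ctrl. U2af1, the small U2AF subunit that contacts the AG at the end of the intron (chr17:31647081-31659148), had 86.4, 79 and 87.9 CPM in the KO2 libraries, 51, 57.1 and 55 CPM in the KO1 libraries and 78.4, 65.5 and 68.2 CPM in the Ctrl libraries. The 3 groups did not overlap, with KO2 highest and KO1 lowest. The log2 fold change was 0.26 ± 0.08 (SE, adjusted p = 0.024) in KO2 and -0.38 ± 0.08 (SE, adjusted p = 0.0055) in KO1. The KO2 call of U2af1 was lost with total counts, in both FPKM fits and without Ctrl replicate 2, Ctrl replicate 3, KO2 replicate 1 or KO2 replicate 3. U2af2, its large partner, had a log2 fold change of 0.32 ± 0.06 (SE, adjusted p = 0.0015) in KO2 and of -0.08 ± 0.06 (SE, adjusted p = 0.37) in KO1. Snrnp70, a U1 protein, had 348, 382 and 333 CPM in the KO2 libraries, 226, 245 and 223 CPM in the KO1 libraries and 289, 269 and 295 CPM in the Ctrl libraries, and it was the second of the group to fall in KO1, with 0.32 ± 0.07 (SE, adjusted p = 0.0034) in KO2 and -0.30 ± 0.07 (SE, adjusted p = 0.0096) in KO1. The KO1 call of Snrnp70 was lost in both FPKM fits. Sf3a1 was at 0.22 ± 0.07 (SE, adjusted p = 0.018) in KO2 and -0.19 ± 0.07 (SE, adjusted p = 0.056) in KO1, and its KO2 call was lost with total counts, in both FPKM fits and without Ctrl replicate 2, Ctrl replicate 3 or KO2 replicate 3. Sf3b1, Sf3b2, Luc7l and Luc7l2 were not called in either line, at -0.01, 0.14, 0.18 and 0.09 in KO2 and 0.04, -0.02, 0.00 and -0.05 in KO1.

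Tri-snRNP components carry out the rearrangement that activates the spliceosome. Sart1 was the 1 of 4 called in KO2, and 0 were called in KO1. The share that rose in KO2, 25%, was near the 24.6% of all tested genes. Sart1 had 103, 94.6 and 101 CPM in the KO2 libraries, 75, 78.9 and 80.1 CPM in the KO1 libraries and 81.3, 72.5 and 79.6 CPM in the Ctrl libraries, and the KO2 libraries lay above all others. On the log2 scale Sart1 stood at 0.35 ± 0.07 (SE, adjusted p = 0.0012) in KO2 and 0.00 ± 0.07 (SE, adjusted p = 0.98) in KO1. Sart1 and Sf3b2 lie on chromosome 19, and by RefSeq their lowest coordinates are 0.418 and 0.522 Mb below the lowest coordinate of Malat1. Prpf8, the central scaffold of the active site, had a log2 fold change of 0.17 ± 0.07 (SE, adjusted p = 0.064) in KO2 and of -0.03 ± 0.07 (SE, adjusted p = 0.77) in KO1. Prpf6 and the kinase Prpf4b were at -0.06 and -0.002 in KO2 and -0.04 and -0.08 in KO1.

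The kinases Clk1 to Clk4 phosphorylate SR proteins, and Cdk12 phosphorylates the tail of RNA polymerase II. Of these 5, Clk4 alone rose in KO2 and Clk3 alone fell in KO1. Each is a share of 20%, where 24.6% of all tested genes rose in KO2 and 14.9% fell in KO1. Clk4 had 105, 111 and 90.1 CPM in the KO2 libraries, 96.8, 78.1 and 78.6 CPM in the KO1 libraries and 75.5, 69.3 and 75.5 CPM in the Ctrl libraries, with the lowest KO2 library below the highest KO1 library. On the log2 scale Clk4 stood at 0.47 ± 0.10 (SE, adjusted p = 0.0024) in KO2 and 0.20 ± 0.10 (SE, adjusted p = 0.16) in KO1. Clk3 had 64.1, 65.9 and 63.5 CPM in the KO2 libraries, 46.5, 58.6 and 56.2 CPM in the KO1 libraries and 71.9, 65.1 and 69.1 CPM in the Ctrl libraries, and every KO1 library lay below every other. Its log2 fold change was -0.09 ± 0.09 (SE, adjusted p = 0.4) in KO2 and -0.35 ± 0.09 (SE, adjusted p = 0.01) in KO1. Clk1 was at 0.24 ± 0.12 (SE, adjusted p = 0.1) in KO2 and 0.15 ± 0.12 (SE, adjusted p = 0.38) in KO1, Clk2 at 0.09 in KO2 and -0.20 in KO1, and Cdk12 at -0.04 in KO2 and -0.10 in KO1, and none of these 3 was called in either line.

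Acin1, Pnn and Rnps1 belong to complexes left near exon junctions, and Ddx39b is an RNA helicase of mRNA export. All 4 rose in KO2, and 2 fell in KO1. Pnn (chr12:59066919-59074017) had 235, 265 and 207 CPM in the KO2 libraries, 136, 124 and 127 CPM in the KO1 libraries and 204, 146 and 193 CPM in the Ctrl libraries, and the KO2 range lay above and the KO1 range below the Ctrl range. Its log2 fold change was 0.38 ± 0.12 (SE, adjusted p = 0.023) in KO2 and -0.49 ± 0.12 (SE, adjusted p = 0.011) in KO1, and KO2 stood 0.87 ± 0.12 (SE, adjusted p = 1.5e-04) above KO1 on the log2 scale, the largest such difference of the 39 genes. The KO2 call was lost without Ctrl replicate 2, KO2 replicate 1 or KO2 replicate 2, with total counts and in both FPKM fits, while the KO1 call was kept with each library left out in turn. Rnps1 had a log2 fold change of 0.27 ± 0.06 (SE, adjusted p = 0.0032) in KO2 and of -0.20 ± 0.06 (SE, adjusted p = 0.031) in KO1. The KO1 call of Rnps1 was kept in 10 of 21 alternatives, and was lost with total counts, with the replicate block and without Ctrl replicate 1, Ctrl replicate 3, KO1 replicate 1, KO1 replicate 3 or KO2 replicate 1. Acin1 was at 0.38 ± 0.08 (SE, adjusted p = 0.0022) in KO2 and -0.04 ± 0.08 (SE, adjusted p = 0.73) in KO1. Ddx39b was at 0.35 ± 0.06 (SE, adjusted p = 7.2e-04) in KO2 and -0.001 ± 0.06 (SE, adjusted p = 1) in KO1, but its FPKM was 209 ± 9.41 in KO2, 189 ± 2.47 in KO1 and 190.1 ± 6.27 in Ctrl (SD, n = 3 each), and it was not called in either fit on FPKM.

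Rbm25 and Rbm39 carry RS-rich domains and act as splicing regulators. Rbm39 (chr2:156147239-156180238) had 570.4, 578 and 496 CPM in the KO2 libraries, 958, 692 and 800.1 CPM in the KO1 libraries and 662, 766 and 714 CPM in the Ctrl libraries. Every KO2 library lay below every Ctrl library, while the KO1 and Ctrl ranges overlapped. Its log2 fold change was -0.38 ± 0.11 (SE, adjusted p = 0.014) in KO2, 0.19 ± 0.11 (SE, adjusted p = 0.22) in KO1, and -0.58 ± 0.11 (SE, adjusted p = 0.0013) for KO2 against KO1. The KO2 call was lost without Ctrl replicate 2 and without KO2 replicate 3. Rbm25 had a log2 fold change of 0.09 ± 0.10 (SE, adjusted p = 0.47) in KO2 and of -0.30 ± 0.10 (SE, adjusted p = 0.046) in KO1. The KO1 call of Rbm25 was kept in 9 of 21 alternatives, and was lost with total counts, with upper quartile scaling, with the replicate block, in both FPKM fits and without Ctrl replicate 1, Ctrl replicate 3, KO1 replicate 2, KO1 replicate 3 or KO2 replicate 1.

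By level per length, Rbm39 was the highest of the 39 genes in KO1 and Ctrl but stood below Srsf5, Ddx39b and Srrm2 in KO2, with 164 ± 13.3 FPKM in KO2, 279 ± 51.2 FPKM in KO1 and 239 ± 20 FPKM in Ctrl (SD, n = 3 each). Srsf5 had 253 ± 24.2 FPKM in KO2, 175 ± 11.8 FPKM in KO1 and 225 ± 32.6 FPKM in Ctrl, and their spreads overlapped in Ctrl. Clk2 was lowest, with 7.56 ± 1.53 FPKM in KO2, 6.63 ± 0.0902 FPKM in KO1 and 7.48 ± 1.35 FPKM in Ctrl. The 39 genes summed to 3363 to 3618 FPKM in KO2, 3044 to 3197 FPKM in KO1 and 2992 to 3309 FPKM in Ctrl. Their share of all FPKM was 0.728% to 0.795% in KO2, 0.690% to 0.745% in KO1 and 0.677% to 0.744% in Ctrl. By share, the KO2 range thus overlapped the others. Clk1 held 61.0% of the summed FPKM of the 4 Clk genes in KO2, 63.9% in KO1 and 60.6% in Ctrl.

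**Figure D4:**
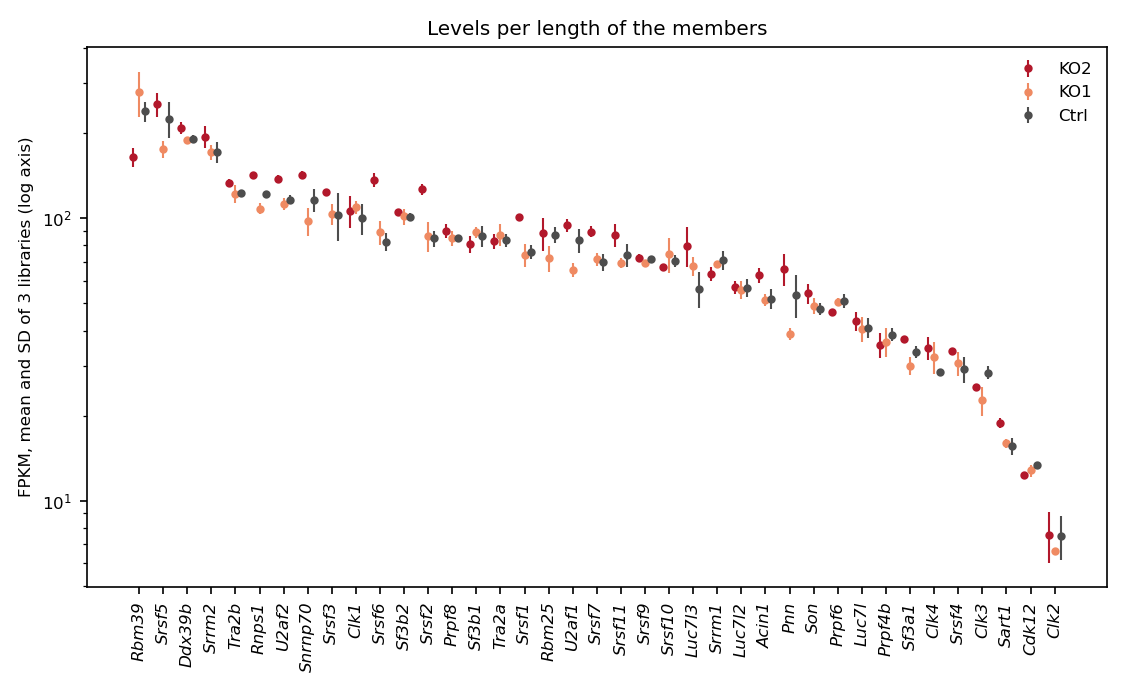
FPKM (log axis) of the 39 genes, ordered by their mean over all 9 libraries, for KO2, KO1 and Ctrl (points: mean of 3 libraries; bars: SD). Rbm39 is highest in KO1 and Ctrl, Srsf5 in KO2, and Clk2 is lowest in each, and the KO2 points lie above the others for Srsf6 and Srsf2.

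The tables also give a mean transcript length per gene and library, which differs between libraries. It is read here as a mean weighted by isoform abundance, as RSEM gives, although no header says so. Length could be tested for 28 of the 39 genes, by limma on log2 length. In KO2 1 was longer and 2 shorter than in Ctrl, where 8.61% of 5619 testable genes were called, 6.48% longer and 2.14% shorter. In KO1 1 was longer and 0 shorter, where 0.694% of testable genes were called, 0.498% longer and 0.196% shorter. Ddx39b measured 2329.7, 2379.9 and 2268 bases in the KO2 libraries, 2212, 2172 and 2159 bases in the KO1 libraries and 2080.2, 2118 and 2169.7 bases in the Ctrl libraries. The KO2 libraries were the longest, and the log2 change of length was 0.132 ± 0.022 (SE, adjusted p = 0.021) in KO2 and 0.039 ± 0.022 (SE, adjusted p = 0.65) in KO1. Tra2b measured 2188, 2194 and 2181 bases in the KO2 libraries, 2239.9, 2236 and 2240.5 bases in the KO1 libraries and 2205, 2191 and 2200.3 bases in the Ctrl libraries, with the KO1 libraries longest, and the log2 change of length was -0.007 ± 0.003 (SE, adjusted p = 0.2) in KO2 and 0.026 ± 0.003 (SE, adjusted p = 0.017) in KO1. Rnps1 and Srrm2 were shorter in KO2, with log2 changes of length of -0.025 ± 0.005 (SE, adjusted p = 0.035) and -0.036 ± 0.008 (SE, adjusted p = 0.047). Between the lines Tra2b, Srrm1 and Rnps1 were shorter in KO2 than in KO1, with log2 differences of length of -0.033 ± 0.003 (SE, adjusted p = 0.0025), -0.073 ± 0.014 (SE, adjusted p = 0.029) and -0.023 ± 0.005 (SE, adjusted p = 0.042), where 7.74% of testable genes were called, 5.02% longer and 2.72% shorter. With the replicate block 0 of these calls against Ctrl were left, and 1 of the 3 between the lines.

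**Figure D5:**
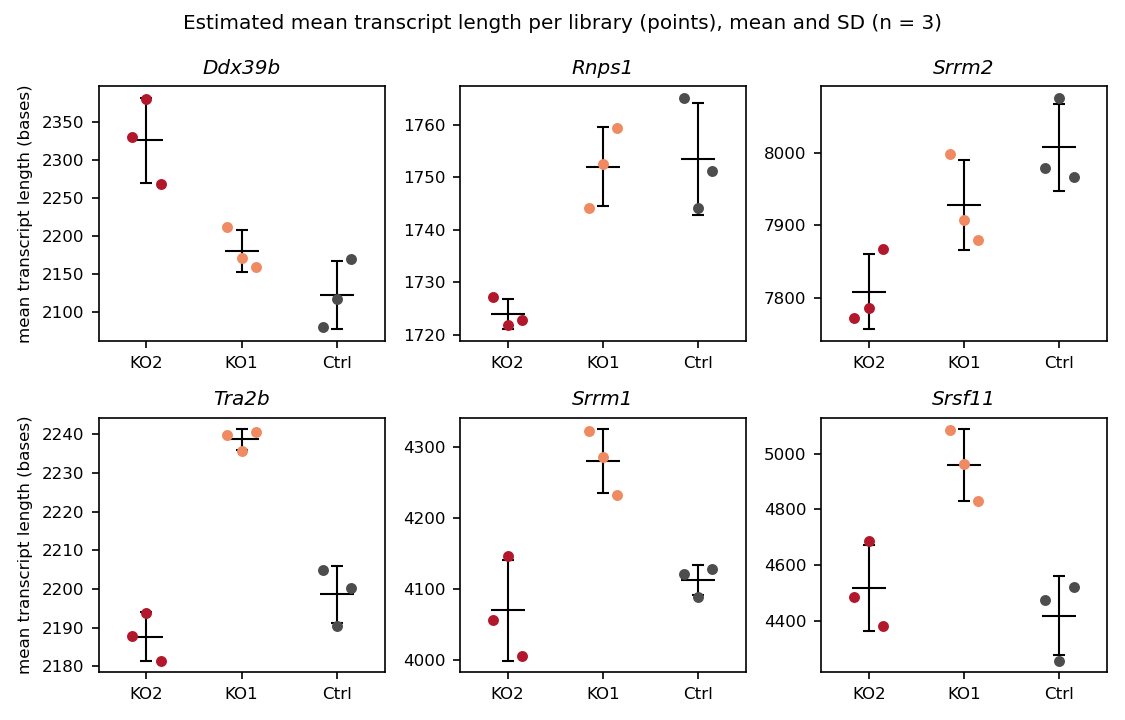
Deposited mean transcript length in bases of 6 genes in each library (points; bars: mean and SD of 3) for KO2, KO1 and Ctrl; axes do not start at 0. Ddx39b is longest in KO2 and Tra2b in KO1. Every KO1 library is also the longest for Srsf11, which was not called. Its log2 change of length in KO1 was 0.167 ± 0.035 (SE, limma, adjusted p = 0.14) against Ctrl.

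In GENCODE M21, 74.4% of the 39 genes have a transcript marked for nonsense-mediated decay and 92.3% one marked as a retained intron, against 27.8% and 57.5% of 12308 tested genes found there by symbol. The 39 genes have a median of 9 transcript models, against 5. The deposited values are per gene and do not separate these transcripts.

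Other splicing genes, in lists written from general knowledge, gave lower shares of rises in KO2 than the 39 genes. Both the 39 genes and the lists were chosen with earlier results of these data known. The contrast is thus a description only, and no test of it was made. Over all tested genes 24.6% rose and 29.5% fell in KO2, and 15.6% rose and 14.9% fell in KO1. In KO2 the share that rose ran from 9.09% of other kinases and import factors to 45% of other RS-domain and speckle genes. The share that fell in KO2 was below 29.5% in each list except those kinases, at 45.5%. In KO1 the share that rose was below 15.6% in every list. The share that fell in KO1 was above 14.9% in every list except other RS-domain and speckle genes, at 10%. It was highest in other kinases and import factors, at 36.4%, and was 29.6% in other snRNP and spliceosome subunits. Of 54 other snRNP and spliceosome subunits, 10 rose and 7 fell in KO2, and 1 rose and 16 fell in KO1. Snrpd1, a core Sm protein, rose by 0.88 in KO2, and Snrpa1, a U2 protein, was lower in both lines, at -0.50 in KO2 and -0.53 in KO1. Of 26 hnRNP proteins, 6 rose and 3 fell in KO2, and 2 rose and 6 fell in KO1, with Hnrnpab at 0.24 in KO2 and -0.51 in KO1. Of 19 other exon junction and export genes, 7 rose and 0 fell in KO2, and 0 rose and 3 fell in KO1, with the exon junction protein Rbm8a at 0.49 in KO2. Of 20 other RS-domain and speckle genes, 9 rose and 2 fell in KO2, and 2 rose and 2 fell in KO1. Ddx17, an RNA helicase in that list, was called in both lines, at 0.75 in KO2 and -1.11 in KO1. Of 11 other kinases and import factors, 1 rose and 5 fell in KO2, and 1 rose and 4 fell in KO1, with Dyrk1a at -0.75 in KO2 and the SR kinase Srpk2 at 0.55 in KO1. Of 21 other splicing regulators, 4 rose and 4 fell in KO2, and 1 rose and 4 fell in KO1, with Celf2 at 0.83 in KO2. By the annotation in the deposited tables, of 289 further nuclear speck genes 73 rose and 71 fell in KO2 and 20 rose and 55 fell in KO1. Of 127 further spliceosomal complex genes, 33 rose and 20 fell in KO2 and 4 rose and 30 fell in KO1.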

How the data were processed

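RNA of 9 libraries (3 KO2, 3 KO1, 3 Ctrl, grouped by their titles) was sequenced; per the submitters' processing notes, HISAT and RSEM were used, with builds mm10 and GRCm38. The deposited expected counts are estimated counts per gene that the authors did not normalise; they were rounded for testing. The FPKM values were scaled by the authors for length and depth. The mean transcript length is a further deposited column. RSEM shares reads between genes with like sequence, and whether strand was used is not given in the sources used here.

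Tests across genes used edgeR 4.0.16 under R 4.3.3 (TMM scaling after filterByExpr, robust quasi-likelihood F test, all 9 libraries in 1 fit, Benjamini-Hochberg over 13682 genes, called at 0.05). Lengths were tested with limma 3.58.1 on genes with at least 100 counts in each library and 2 or more transcript models, a test chosen after the files were seen. Alternatives included other scalings, DESeq2 1.42.0, FPKM fits, a block and each library left out. Both fits were also run on simulated data, with a small set of genes changed in KO1 alone, as many up as down. In the real data edgeR called a far larger share of genes, so its simulation does not test the scaling. Members, lists and their roles were chosen with earlier results of these data known. The rule for named genes takes the 39 genes, Malat1 and, per list, line and direction, the 2 called genes with the largest change and a mean of at least 5 CPM; it takes 76 genes, of which the list genes are printed as examples. The deposited annotation column gave the speck and spliceosomal lists. Of the 6 promoter motifs, typed from general knowledge and searched once, all are reported, without a test. Promoters are from RefSeq, GRCm38.p6, and biotypes from GENCODE M21.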

Additional observations from a re-analysis of the deposited data

Results flagged for a closer look

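For 27 of the 39 genes the 2 knockout lines differed from each other, by edgeR's quasi-likelihood test of KO2 against KO1 at an adjusted p under 0.05. Of all tested genes 55% were called in this comparison, 25.5% higher and 29.5% lower in KO2. The log2 difference, KO2 minus KO1, is given for each. Among SR proteins it was 0.55 for Srsf1, 0.66 for Srsf2, 0.39 for Srsf3, 0.30 for Srsf4, 0.65 for Srsf5, 0.72 for Srsf6, 0.45 for Srsf7, 0.16 for Srsf9, 0.30 for Srsf11 and 0.21 for Tra2b. Among speckle scaffolds it was 0.27 for Srrm2 and 0.29 for Son, and among splice site recognition factors 0.64 for U2af1, 0.40 for U2af2, 0.42 for Sf3a1, 0.61 for Snrnp70 and 0.37 for Luc7l3. For tri-snRNP components it was 0.20 for Prpf8 and 0.35 for Sart1, and for kinases 0.26 for Clk3 and 0.27 for Clk4. Exon junction and export genes had 0.42 for Acin1, 0.87 for Pnn, 0.47 for Rnps1 and 0.35 for Ddx39b, and RS-domain regulators had 0.39 for Rbm25 and -0.58 for Rbm39. KO2 was higher for 26 of them and lower for Rbm39. The calls of Srsf3, Srsf4, Srsf9, Srsf11, Srrm2, Prpf8, Clk3, Clk4, Tra2b and Luc7l3 were each lost with total counts and with at least 1 of the libraries left out. Each line's change from Ctrl is measured against the same Ctrl libraries, while the difference between lines is not. The Ctrl libraries still enter the fit of that difference, and without Ctrl replicate 1 or Ctrl replicate 3 its count was 25. The remaining Malat1 level was 27.2% of the Ctrl mean in KO2 and 0.735% in KO1, and the part of that in these differences was not tested.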

How the results depend on the processing

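The count of the 39 genes called in KO1 against Ctrl was 7, and ran from 4 to 7 with 1 library left out; it was 4 with the replicate block, 4 in limma on log2(FPKM + 0.1) and 2 at an adjusted p under 0.01. For KO2 against Ctrl it was 22, from 15 to 23 with 1 library left out, and 13 in limma on log2(FPKM + 1), on log2(FPKM + 0.1) and at an adjusted p under 0.01. For KO2 against KO1 it was 27, from 20 to 27 with 1 library left out, 17 with total counts only, 16 in both FPKM fits and 17 at an adjusted p under 0.01. Calls kept under each of 21 alternatives were 1 of 7, 11 of 22 and 15 of 27. Of 2520 values of single genes under an alternative, 2335 kept their side of the threshold, 171 lost a call and 14 gained one. Of the 2335, 2232 kept their sign and 103 had the other sign, all of them values not called under either setting; 0 called values turned round. The number of genes whose transcript length was called was 1 in KO1, 3 in KO2 and 3 between the lines; with 1 library left out it ran from 0 to 1, 0 to 3 and 1 to 3. It was 0, 0 and 1 with the replicate block, with only the 2 groups compared, and at an adjusted p under 0.01. The length alternatives were chosen after seeing the data. Libraries with the same replicate number had correlations from -0.34 to 0.05 in their deviations across genes. Those with unlike numbers had correlations from -0.17 to 0.34. No pairing by number was seen, but deviations within a group sum to 0, so these values cannot exclude it. With the replicate block the KO2 count was 21 and that between the lines 24. Causes of these shifts were not tested. With 3 libraries a group, small changes may go uncalled.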
